A study of Mus musculus with 2 samples.

Results

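The Mir26 family of the mouse consists of 3 microRNA genes, Mir26a-1, Mir26a-2 and Mir26b, each inside an intron of a gene for a small C-terminal domain phosphatase of the Ctdsp group. They were taken by gene identifier from 1973 counted miRNA genes, and all 3 had at least 10 reads in both libraries, as did 333 genes in all. The libraries came from facial prominence, the embryonic tissue that forms the face and jaws, of B6NCrl mice at embryonic day 15.5. Both are biological replicates of 1 group of healthy embryos with no allele or treatment named, replicate 1 from a pool of 78 embryos and replicate 2 from a pool of 62, with the sexes mixed. The design therefore has no contrast between conditions, and what it allows is the level of each gene, the order of the genes and the spread between pools.

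MicroRNAs are cut from hairpin transcripts by Drosha and Dicer, and the mature strand guides Argonaute to messenger RNAs that match its seed, bases 2 to 8. For the Mir26 family the strand from the 5′ side of the hairpin (5p) is the usual guide, and the 3′ strand (3p) is the usual passenger. The host phosphatases remove phosphates from RNA polymerase II and, in human cells, from the retinoblastoma protein, and they take part in keeping neuronal genes silent in other cells. In human cells miR-26 also acts on cell cycle genes and on the histone methyltransferase EZH2, so host and miRNA are known for related roles in cell cycle restraint.

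The mature 5p sequences are shown because the counts below depend on which of them occur at 1 place in the genome. Capitals mark the seed, and the sequences are from RefSeq on GRCm38.p6.
mmu-miR-26a-5p (Mir26a-1 and Mir26a-2): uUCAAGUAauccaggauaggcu
mmu-miR-26b-5p (Mir26b): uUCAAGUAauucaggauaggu

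Mir26a-1 and Mir26a-2 carry the identical 5p sequence of 22 bases. The 5p of Mir26b has the same seed, UCAAGUA, and differs from it by C11U and C21U over the 21 bases compared, with positions counted from the 5′ end and the miR-26a base first. Among 1738 mature entries of the RefSeq table this seed occurred in the Mir26 genes and in no other gene.

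The 3p sequences are the arms that differ among all 3 genes, and capitals again mark bases 2 to 8.
mmu-miR-26a-1-3p: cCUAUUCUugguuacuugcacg
mmu-miR-26a-2-3p: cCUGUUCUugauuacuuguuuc
mmu-miR-26b-3p: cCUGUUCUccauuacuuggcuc

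The 3p arms of Mir26a-2 and Mir26b share the seed CUGUUCU and match at 18 of 22 bases, while that of Mir26a-1 has the seed CUAUUCU through A4G. The 3p arms of the Mir26a genes match at 16 of 22 bases, and those of Mir26a-1 and Mir26b at 14 of 22. The seed CUGUUCU also occurred in the 3p strands of Mir6932, with 1 and 4 reads in replicates 1 and 2, and of Mir7039, with 1 and 0 reads. Those genes had under 10 reads in each library, so Mir26a-2 and Mir26b were the detected genes with this 3p seed. The counts are per gene and do not show whether the 3p strand itself was present.

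The hairpins show how much of each gene can be told from its copy, with the mature arms in capitals.
Mir26a-1: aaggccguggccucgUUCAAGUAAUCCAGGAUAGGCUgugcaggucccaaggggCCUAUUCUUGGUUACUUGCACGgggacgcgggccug
Mir26a-2: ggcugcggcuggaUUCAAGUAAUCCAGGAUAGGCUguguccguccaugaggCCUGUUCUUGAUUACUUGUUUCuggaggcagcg
Mir26b: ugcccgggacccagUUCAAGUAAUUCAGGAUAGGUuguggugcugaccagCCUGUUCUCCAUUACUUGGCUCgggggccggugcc

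The longest run of bases shared by the Mir26a hairpins was 25, covering the whole 5p arm and its next 3 bases, at bases 16 to 40 of Mir26a-1 and 14 to 38 of Mir26a-2. A read that lies within this run fits both genes. Mir26b shared at most 11 bases with Mir26a-1 and 10 with Mir26a-2, and no Mir26 hairpin shared more than 11 bases with any other hairpin of the table. Every window of 22 bases in Mir26b was therefore its own among the hairpins of the table, whereas 4 of the 69 such windows of Mir26a-1 also lay in Mir26a-2.

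**Figure D1:**
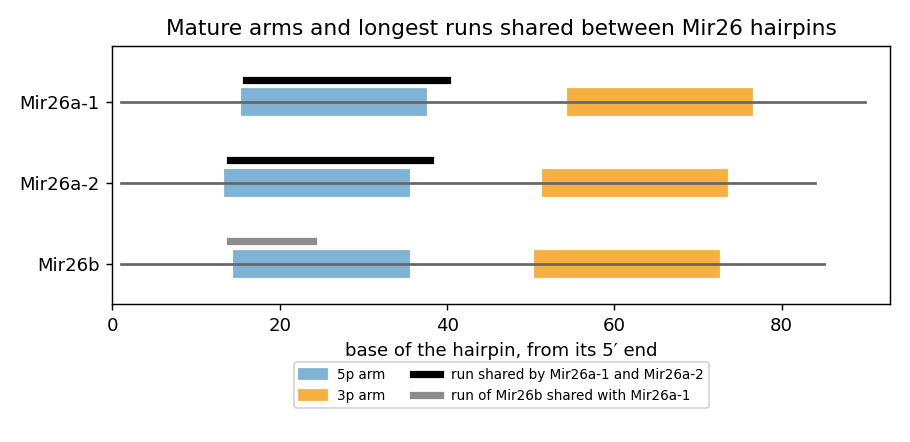
Each line is a hairpin from its 5′ end, in bases, with boxes for the 5p and 3p arms and bars for shared runs. The 25-base run common to Mir26a-1 and Mir26a-2 covers their 5p arms, while the longest run of Mir26b shared with Mir26a-1 is 11 bases and their 3p arms lie outside these runs.

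The genes lie on 3 chromosomes, each on the plus strand and in the direction of its host (GRCm38, equal to mm10, 1-based, GENCODE M21). Mir26b is at chr1:74394310-74394394 in intron 4 of Ctdsp1, an intron of 564 bases, with 234 bases between the hairpin and the exon before it and 245 to the exon after it. Mir26a-1 is at chr9:119031796-119031885 in intron 5 of Ctdspl, with 1543 bases before it and 1650 after it in an intron of 3283 bases. Mir26a-2 is at chr10:126995530-126995613 in intron 5 of Ctdsp2, an intron of 1946 bases, 1621 bases from the exon before it and 241 from the exon after it. These intron numbers are those of the principal host transcripts. In 2 shorter Ctdsp2 transcripts the first exon starts at the last base of the Mir26a-2 hairpin, an overlap of 1 base.

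The hosts differ in size, and none of the hairpins belongs to a tight miRNA cluster that was detected. Ctdspl spans 117546 bases, Ctdsp2 21259 and Ctdsp1 5777. The nearest other miRNA gene was Gm22008 for Mir26a-1, at 1032366 bases, and Mir1928 for Mir26b, at 187690 bases, and both had 0 reads in each library. Mir546 lies 2827 bases from Mir26a-2 and had 3 reads in replicate 1 and 1 in replicate 2.

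**Figure D2:**
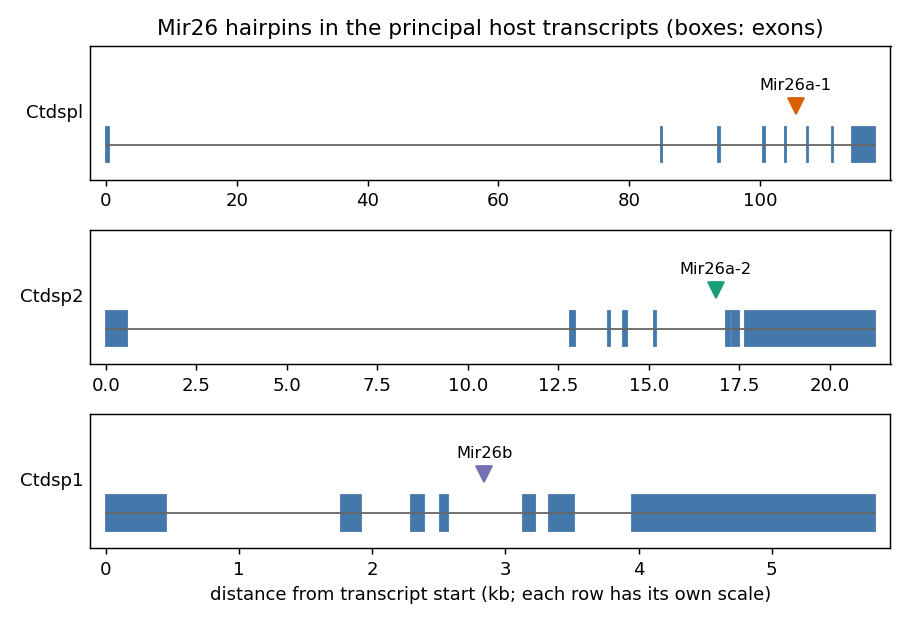
Each row is the principal transcript of a host gene, drawn from its start in kb on its own scale, with boxes for exons and a triangle for the hairpin. Mir26a-1 and Mir26a-2 lie in intron 5, toward the 3′ end of their hosts, and Mir26b lies in intron 4, near the middle of its host.

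The 3 genes differed widely in assigned reads, and Mir26b supplied nearly all of them. Mir26b had 76759 reads in replicate 1 and 179832 in replicate 2. Mir26a-2 had 127 and 241 reads, and Mir26a-1 had 22 and 59. The order Mir26b, Mir26a-2, Mir26a-1 was the same in both libraries, with no overlap between the genes. All reads of the 3 genes lay on the strand of the gene, and 0 lay on the opposite strand.

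As CPM, the reads scaled to a common total of assigned reads with TMM factors between libraries, Mir26b reached 25682 in replicate 1 and 28162 in replicate 2, with a mean of 26922 ± 1754 (SD, n = 2). It was thus one of the most abundant detected genes by assigned reads, with rank 9 of 333 in each library. Reads mapping to several places, given to no gene, were 23.3 times those of Mir26b in each library. The rank therefore does not hold for mature miRNAs that have copies. The share of Mir26b in assigned reads was 2.58% in replicate 1 (95% exact Clopper-Pearson interval 2.56 to 2.60) and 2.81% in replicate 2 (2.79 to 2.82). The Mir26a genes were both in the lower part of the detected range. Mir26a-2 stood at 42.5 and 37.7 CPM in replicates 1 and 2, with a mean of 40.1 ± 3.36 (SD, n = 2) and rank 246. Mir26a-1 stood at 7.36 and 9.24 CPM, with a mean of 8.30 ± 1.33 (SD, n = 2) and rank 302. The limit that 3 reads set was 1.00 CPM in replicate 1 and 0.470 CPM in replicate 2, so both Mir26a genes were above it in each library. The median of the detected genes was 180.3 CPM, between Mir26b and the Mir26a genes. In a bulk tissue, fewer cells that express a gene and less RNA per cell cannot be told apart.

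**Figure D3:**
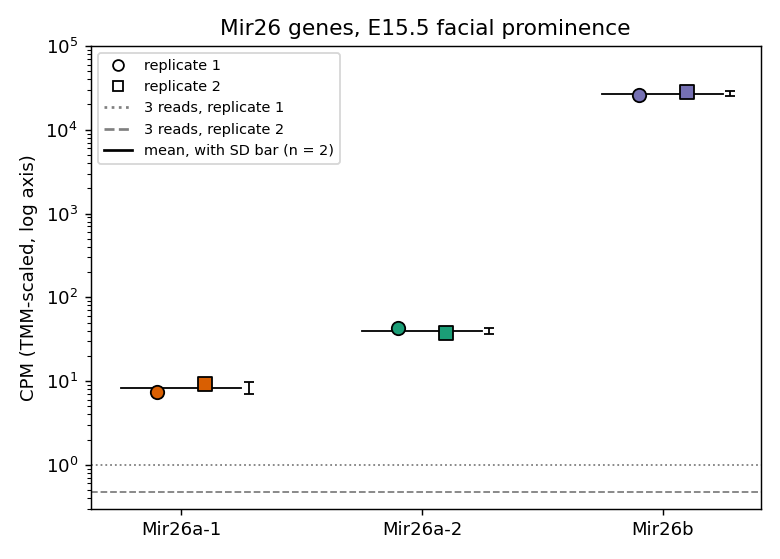
CPM of each Mir26 gene on a log axis, with circles for replicate 1, squares for replicate 2, a line for the mean, a bar for the SD (n = 2) and dashed lines at the level of 3 reads. Mir26b lies near 26922 CPM, Mir26a-2 near 40.1 and Mir26a-1 near 8.30, and the points of the genes do not overlap.

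Ratios within a library do not depend on the scaling between libraries. Mir26b had 3489 times the reads of Mir26a-1 in replicate 1 (95% interval 2304 to 5568) and 3048 times in replicate 2 (2363 to 4004). Against Mir26a-2 it had 604 times the reads (508 to 725) in replicate 1 and 746 times (658 to 850) in replicate 2. Mir26a-2 had 5.77 times the reads of Mir26a-1 in replicate 1 (3.65 to 9.54) and 4.08 times in replicate 2 (3.06 to 5.53). Each interval, which covers counting error only, lay above 1. The mean log2 ratios were 11.67 ± 0.14, 9.39 ± 0.22 and 2.28 ± 0.35 in the same order (SD, n = 2), so every difference between members was larger than the spread between pools. Divided by hairpin length, which is 85 bases for Mir26b, 84 for Mir26a-2 and 90 for Mir26a-1, the ratios per base were 3694 and 3227 for Mir26b over Mir26a-1, 597 and 737 for Mir26b over Mir26a-2, and 6.18 and 4.38 for Mir26a-2 over Mir26a-1. The mature arms of these genes have 21 or 22 bases, so reads need not grow with hairpin length. The values per base are therefore descriptive and not a correction.

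These ratios hold for reads that were assigned to 1 gene. Reads mapping to several places were counted apart and given to no gene, 1789456 of them in replicate 1 and 4186211 in replicate 2, and the tables do not say which genes they fit. That is 12010 and 13954 times the summed reads of Mir26a-1 and Mir26a-2, which were 149 and 300. How much of this pool was miR-26a-5p was not tested, so the Mir26a values are counts of reads told apart between the copies and not the abundance of miR-26a. The order of miR-26a and miR-26b as mature miRNAs cannot be read from these tables. Nor do the tables separate the 5p from the 3p arm. With the pool added to the library size, Mir26b made up 1.61% of the reads in replicate 1 and 1.70% in replicate 2.

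The same split was described over all genes with mature entries in RefSeq, of which 582 of the counted genes had both arms listed. Arms were compared as RefSeq lists them, so an arm whose copy is unlisted counts as its own. In 53 of the 582 genes, Mir26a-1 and Mir26a-2 included, 1 arm was identical to that of another gene and the other arm was its own. Their median level was 14.8 CPM, and 5 of the 53 (9.43%) exceeded 1000 CPM, with Mirlet7f-2 highest at 2849 CPM. Mir26a-2 had rank 20 and Mir26a-1 rank 32 among them. In 513 genes, Mir26b included, no arm was identical to that of another gene, with a median of 1.08 CPM, 76 genes (14.8%) above 1000 CPM and a highest level of 79020 CPM. The 16 genes with every arm identical had a median of 0 CPM and a highest level of 227.4 CPM. Mir26b was thus in the upper range of the genes with their own arms, and the Mir26a genes were on either side of the median of the genes with 1 arm shared.

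**Figure D4:**
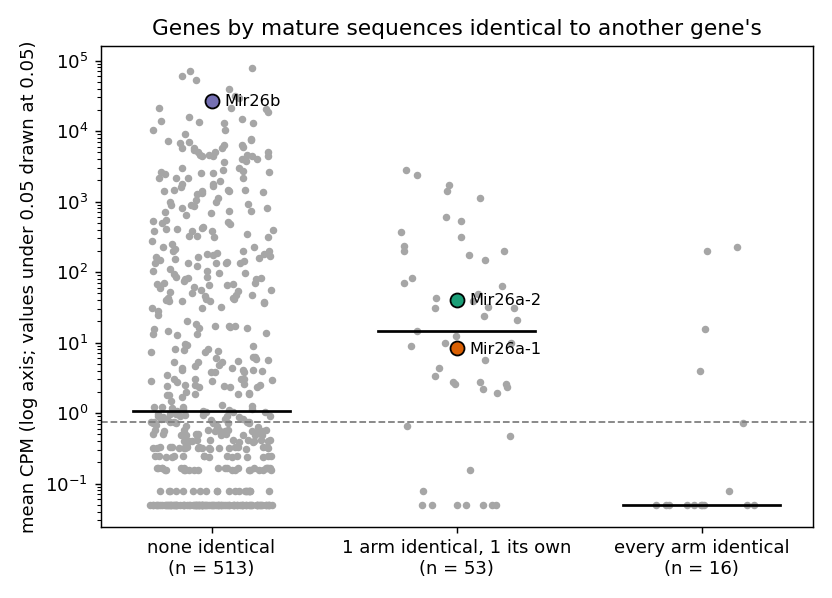
Mean CPM of the 582 genes with both arms in RefSeq, on a log axis, by whether mature arms are identical to those of another gene. Black lines are medians, and the dashed line at 0.737 CPM is the mean level of 3 reads. Mir26b is near the top of the left group, and Mir26a-2 and Mir26a-1 lie around the median of 14.8 CPM in the middle group.

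Among counted genes, 33 pairs carry a mature sequence that RefSeq lists for exactly 2 genes, and the Mir26a pair was number 12 of them by summed level, at 48.4 ± 2.03 CPM (SD, n = 2). With pairs from sequences listed for 3 or more genes added, it was number 14 of 53. In 5 of the 6 highest of the 33 pairs the copies also differed by more than their SDs. As for the Mir26a pair, reads that fit both copies are not in these values. Mir92-1, of the Mir17 cluster, stood at 2393 ± 288 CPM against 71.0 ± 11.7 CPM for Mir92-2 (SD, n = 2). Mir181a-1 had 1739 ± 247 CPM and Mir181a-2 had 176.4 ± 11.8, while Mir16-1 had 1420 ± 87.7 and Mir16-2 had 314.7 ± 20.1. Mir125b-1 reached 1117 ± 93.9 CPM and Mir125b-2 534 ± 0.534, and Mir181b-2 reached 611 ± 118 CPM with Mir181b-1 at 12.4 ± 2.40. Mirlet7a-1 and Mirlet7c-2, which share a 3p arm, were at 233 ± 33.4 and 227.4 ± 18.6 CPM and differed by less than their SD.

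Between the pools Mir26b and Mir26a-2 differed by less than the median detected gene, and Mir26a-1 by more. The log2 ratio of replicate 2 over replicate 1 was 0.13 for Mir26b, with a 95% counting interval of 0.12 to 0.15. Mir26a-2 had a log2 ratio of −0.17 (−0.49 to 0.15) and Mir26a-1 of 0.33 (−0.40 to 1.10), so both intervals took in 0. That of Mir26a-1, from 22 and 59 reads, also reached past 1.5-fold, so its reads do not show that the pools were alike. None of the 3 members differed by over 1.5-fold, against 36 of the 333 detected genes (10.8%), of which 25 were higher in replicate 2 and 11 in replicate 1. That share depended on the limit for detection, at 33.0% (185 of 560 genes) with at least 1 read in each library and 5.67% (14 of 247) with at least 100. With 1 library against 1 there is no replicate check on a difference between pools, so no p-value is given. Over all detected genes the median size of the log2 ratio was 0.20, and 37.2% of them had a ratio as small as that of Mir26b or smaller. The share was 43.8% for Mir26a-2 and 67.9% for Mir26a-1, the member with the fewest reads.

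**Figure D5:**
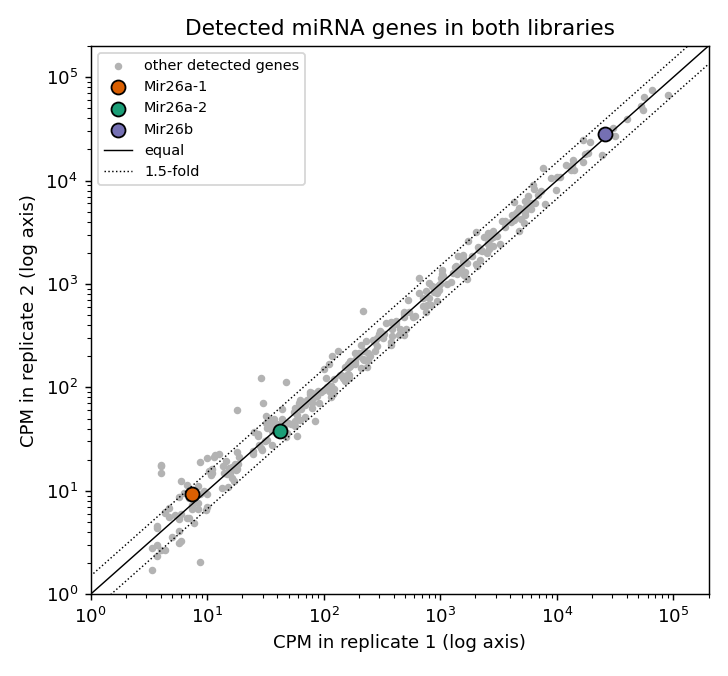
CPM in replicate 1 against replicate 2 for the 333 detected genes on log axes, with a solid line for equal levels and dotted lines for a difference of 1.5-fold. The 3 Mir26 genes lie between the dotted lines, which 36 of the 333 genes cross.

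The genes most like each member over the 2 libraries were found by the distance in log2 CPM. For Mir26b they were Mir126a, the endothelial miRNA, at a distance of 0.0893, and Mir23a at 0.308, which were also its neighbours in rank. Mir23a stood at 31664 CPM in replicate 1 and 26969 in replicate 2, and Mir126a at 24156 and 28414. Mir26b was therefore below Mir23a and above Mir126a in replicate 1 and in the opposite order in replicate 2. The means, 29316 ± 3320 CPM for Mir23a and 26285 ± 3011 for Mir126a (SD, n = 2), differed from that of Mir26b by less than their SD.

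For Mir26a-2 the nearest were Mir666, with 127 and 242 reads at a distance of 0.00597, and Mir363, with 128 and 265 reads at 0.137. Its neighbours in rank were Mir666 (40.2 ± 3.25 CPM) above and Mir7-1 (39.4 ± 1.25 CPM) below (SD, n = 2). For Mir26a-1 the nearest were Mir5113, with 21 and 54 reads at 0.144, and Mir490, with 19 and 61 reads at 0.217. Gm23134 (8.54 ± 2.11 CPM) and Mir1930 (8.14 ± 2.21 CPM) were next above and below it (SD, n = 2). None of these neighbours in rank differed from its member beyond the SD, so the exact ranks are not resolved.

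Mir26b was also set beside other miRNAs that lie in introns of protein-coding genes. Of 33 such genes counted, 2 stood above Mir26b, namely Mirlet7g in Wdr82 at 52439 ± 666 CPM and Mir335 in the imprinted gene Mest at 39738 ± 622 CPM (SD, n = 2). Another 27 lay between Mir26a-2 and Mir26b, among them Mir30e in Nfyc at 13420 ± 961 CPM and the cartilage miRNA Mir140 in Wwp2 at 12939 ± 334 CPM (SD, n = 2). The median of the list was 1138 CPM, and 3 of its 32 detected genes differed by over 1.5-fold between the pools, 2 higher in replicate 2 and 1 in replicate 1, beside the 10.8% of all detected genes. Its median log2 ratio was −0.08, against −0.02 over all detected genes.

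A list of miRNAs known to restrain the step from G1 to S phase, the role also given to miR-26 and its hosts, held 23 genes, of which 20 were matched and all 20 were detected. Mirlet7i (70479 ± 6533 CPM), Mirlet7g and Mir322 (31509 ± 1378 CPM) stood above Mir26b, and Mirlet7d (13905 ± 454 CPM) came next below it (SD, n = 2). None of the 20 differed by over 1.5-fold between the pools, beside 10.8% of all detected genes, and their median log2 ratio was 0.07. This holds for the listed genes only, which were chosen with results known. The Mir449 genes were not among them, and Mir449a, at 10437 CPM, was over 1.5-fold higher in replicate 2 (log2 ratio 0.81). The 20 had a median of 915.6 CPM, against 180.3 CPM over all detected genes. With at least 100 reads in each library the share over 1.5-fold was 5.67%. No gene of 16 linked to bone and cartilage stood above Mir26b. The highest were Mir214, of mesenchyme, at 15973 ± 1244 CPM, Mir140 at 12939 ± 334, Mir455 in the collagen gene Col27a1 at 1947 ± 340 and Mir148a at 1356 ± 16.7 (SD, n = 2). Of its 14 detected genes 1 was over 1.5-fold higher in replicate 2, as were 7.51% of all detected genes, and the median log2 ratio was −0.07.

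The labelled tissue was checked with 8 miRNAs of epithelium, cartilage, mesenchyme, skeletal muscle and endothelium. All 8 were detected, from 1947 CPM for Mir455 to 79020 CPM for Mir203, and they summed to 189057 and 159860 CPM in replicates 1 and 2. Other miRNAs of these tissues, not on the list, varied widely. Mir429, of epithelium, stood at 21303 CPM and Mir199b, of mesenchyme, at 1138. Mir199a-2 was at 201.3 CPM, and in muscle Mir133b was at 75.5 and Mir1a-1 at 0.40. Of 7 miRNAs of liver, heart, brain and pluripotent cells 3 were detected, with sums of 98.4 and 159.6 CPM over all 7. These sums hold for the listed genes only. Among relatives of listed genes that were not on the list, Mir208b stood at 84.9 CPM, Mir302d at 41.8 and Mir302c at 4.41. The brain genes Mir124a-1 and Mir124a-2 were at 0 reads in both libraries, although copies with a common sequence can lose reads as described for Mir26a. Of other miRNAs linked to neural tissue and not on the list, Mir137 stood at 198.8 CPM and Mir153 at 24.5. The list therefore does not show that neural miRNAs were absent. Mir122, of liver, had a log2 ratio of 1.20 (95% counting interval 0.87 to 1.54) toward replicate 2. The part of tissue makeup in the small difference of Mir26b between pools was not tested.

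The libraries held 5840705 reads in replicate 1 and 14085643 in replicate 2, of which 2978463 and 6408008 were assigned to miRNA genes. Mapping to several places took 30.6% and 29.7% of the reads, no mapping 16.2% and 21.8%, and places outside the counted genes 2.19% and 3.00%.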

How the data were processed

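The tables that the authors deposited hold whole-number read counts for every miRNA gene, made on mm10 with GENCODE M4, per the deposited file lists. The aligner and counter were not given in the sources used here. Reads on either strand were used, and the lines for unmapped, multiply mapped and unannotated reads stayed out of library sizes. Symbols and positions came from GENCODE M21, which named 1894 of 1973 genes, and sequences from RefSeq (GRCm38.p6). CPM used TMM factors over detected genes (at least 10 reads in each library) in edgeR 4.0.16 under R 4.3.3. Exact intervals came from scipy 1.17.1 (Python 3.11.15, pandas 2.3.3, matplotlib 3.10.9). They and the 3-read limit cover counting error only, since reads without molecular identifiers are not independent molecules. Replicates are separate pools of embryos, per the labels.

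The members and lists were chosen with earlier results of these data known. Named genes were the members, for each the 2 nearest genes in log2 CPM and its neighbours in rank, the 4 highest of each list (more for the tissue check) and the 6 highest pairs with a mature sequence listed for exactly 2 genes. Genes named beyond these, to describe a position, a seed, the top of a group or genes outside a list, were picked with values known. Alternatives were other scalings (total counts, DESeq2 1.42.0 size factors, multiply mapped reads in the library size, the top gene removed), other filters, reads on the gene's strand, summed copies and each replicate left out.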

Additional observations from a re-analysis of the deposited data

How the results depend on the processing

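Leaving out 1 of 2 replicates cannot move a mean beyond the SD, and taking reads on the gene's strand alone cannot move the ratios between members, which had 0 reads on the other strand, so these 15 values are not counted. Of the other 52 values under alternative settings, 40 stayed within the SD between replicates, the counting interval or 1.5 times the count, and none changed direction. Some of the 40 were also nearly fixed. Total counts, DESeq2 size factors and the other filters keep the product of the 2 library sizes, so a mean over both libraries hardly moves. Under them the mean of Mir26b was from 26917 to 26934 CPM, so such values are no check of the levels. With multiply mapped reads in the library size the levels were 16537 CPM for Mir26b, 24.7 for Mir26a-2 and 5.09 for Mir26a-1, since the divisor grew. With the top gene removed from the totals, Mir26b stood at 29235 CPM and Mir26a-2 at 43.6. The log2 ratio of Mir26b between replicates was 0.15 with DESeq2 size factors, 0.076 with multiply mapped reads in the library size and 0.16 with a filter of 100 reads, so its exact value moved with the scaling and the filter. With the Mir26a copies summed, they reached 48.4 CPM and the mean log2 ratio of Mir26b over them was 9.12. Genes over 1.5-fold apart numbered 185 of 560 with 1 read in each library as the limit and 14 of 247 with 100 reads. None of the 22 alternative values of the members' replicate ratios passed 1.5-fold. Without replicate 1 or replicate 2 Mir26b stood at 28162 or 25682 CPM. Depth limits Mir26a-1 most, with 22 reads in replicate 1.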
